A study of Mus musculus with 93 samples.

Results

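Cell cycle and proliferation genes in liver were examined across 7 inbred mouse strains and 2 diets in 93 male mice. The members were 40 genes chosen by name for their known roles in S phase and mitosis, out of 53465 genes in the count table. Of the 40, 12 act in G1/S and DNA replication and 28 in G2 and mitosis, and all 40 passed the filter on low counts that left 19110 genes for testing. The strains were the domesticated C57BL/6J, DBA/2J, A/J, and 129S1/SvImJ and the wild-derived WSB/EiJ, CAST/EiJ, and PWK/PhJ. All mice were housed at thermoneutrality (30 °C) from 6 wk of age, and from 7 wk of age they received a control diet (CD, with 10% of calories from fat) or a western-style diet (WD, with 40% of calories from fat). On CD there were 8 C57BL/6J, 6 DBA/2J, 5 A/J, 7 129S1/SvImJ, 6 WSB/EiJ, 7 CAST/EiJ, and 6 PWK/PhJ mice, and on WD there were 8, 7, 6, 6, 6, 8, and 7 mice of these strains in the same order. The comparison of WD with CD within a strain asks how the liver responds to the diet, and the comparison of strains asks how far this response and the level on CD depend on the genetic background.

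A cell that divides copies its DNA in S phase and separates the copies in mitosis. Cyclins and their kinases drive the order of these steps. At the start of S phase, E2F transcription factors activate genes for DNA replication once the retinoblastoma family of repressors is released. In G2 the activator FOXM1 and the MYB-MuvB complex switch on the genes of mitosis, which the DREAM repressor complex holds off in resting cells. The adult liver is a largely quiescent organ, and its hepatocytes can enter the cycle again after injury or loss of tissue. Macrophages, lymphocytes, bile duct cells, and stellate cells of the liver can divide as well. In bulk RNA, a change in the number of cells of a type and a change in RNA per cell cannot be told apart.

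The members were expressed at low levels. On CD, Pcna, the sliding clamp of the replication fork, had the highest level per exon length, at 8.70 FPKM (fragments scaled to exon length and depth) averaged over the 7 strains. Mcm7, a subunit of the replicative helicase, had 3.14 FPKM and Rrm2, a subunit of ribonucleotide reductase, had 1.82 FPKM. The lowest was Cenpf, a kinetochore protein, at 0.027 FPKM. For comparison, the hepatocyte gene Alb had 45950 FPKM and Gapdh 191 FPKM, so the livers were those of a hepatocyte-rich tissue in which few transcripts belonged to cell division. The libraries held between 40020424 and 49894856 reads assigned to genes, and at this depth 24 of the 40 members had at least 10 counts in every mouse. Ccnb1, encoding the mitotic cyclin B1, had 0 to 576 counts per mouse with a median of 13. All reads were mapped to the C57BL/6J genome, and the median share of unmapped reads was 2.39% in C57BL/6J, 5.48% in PWK/PhJ, and 12.5% in CAST/EiJ, so a difference in level between strains and a difference in mapping cannot be told apart. Within a strain both diets were mapped to that same genome. In PWK/PhJ the unmapped share was 2.2% to 4.2% on CD and 5.5% to 8.7% on WD, while in the other strains the diets overlapped. The part of this in the diet effects was not tested.

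A single library stood apart from its group. Over genes outside the cell cycle lists, C57BL/6J CD replicate 2 had a mean Pearson r of 0.9549 with the other mice of its group, 8.96 median absolute deviations below the median of the 93 mice, and no other mouse lay more than 5 below. Its RNA integrity number (8.7) and its depth (49002006 reads) were within the range of the group. It carried the highest level of most members of all 93 mice, and it also carried 141 CPM (counts scaled to library size) of the imprinted fetal RNA H19, against 0.039 to 1.02 CPM in the other 7 mice of its group. Gpnmb, a gene of lipid-associated macrophages, stood at 178 CPM in it and at 0.59 to 7.88 CPM in the others. Many results in C57BL/6J are also given without it, but not every value that moved is repeated.

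Promoters of the members were examined for the short elements through which E2F and the DREAM complex act. RefSeq windows of 300 bases around the transcription start (GRCm38.p6) were found for 32 of the 40 members, 10 of the G1/S and 22 of the G2/M genes. The CHR element (TTTGAA on either strand) was present in 17 of the 22 G2/M windows (77.3%), in 1 of the 10 G1/S windows (10%), and in 20.2% of all 27025 genes with a window. The CCAAT box, which NF-Y binds, was present in 86.4% of the G2/M, 70% of the G1/S, and 41.1% of all genes, and CHR and CCAAT together in 72.7%, 10%, and 7.97%. E2F-like elements (TTCCCGC or TTGGCGC on either strand) went the other way, with 50% of the G1/S windows, 18.2% of the G2/M windows, and 7.79% of all genes. TTCCCGC alone was in 3 of the 10 G1/S windows, in 0 of the 22 G2/M windows, and in 5.29% of all genes. TTGGCGC alone was in 5 of 10, 4 of 22, and 2.85%. These matches describe letters in a window and not bound sites, and TTGGCGC and the reverse CCAAT box (ATTGG) share letters and can overlap. The windows of Mki67, Top2a, and Cdk1, which are the G2/M genes followed mouse by mouse here, and of Mcm6, the G1/S gene whose response to the diet differed most by strain after Ccne2, are shown 5′ to 3′ on the strand of the gene, with the CHR, CCAAT, and E2F-like elements in capitals. They lie on the minus strand at chr7:135716330-135716629 (Mki67), chr11:99024140-99024439 (Top2a), chr10:69352863-69353162 (Cdk1), and chr1:128359656-128359955 (Mcm6).
Mki67: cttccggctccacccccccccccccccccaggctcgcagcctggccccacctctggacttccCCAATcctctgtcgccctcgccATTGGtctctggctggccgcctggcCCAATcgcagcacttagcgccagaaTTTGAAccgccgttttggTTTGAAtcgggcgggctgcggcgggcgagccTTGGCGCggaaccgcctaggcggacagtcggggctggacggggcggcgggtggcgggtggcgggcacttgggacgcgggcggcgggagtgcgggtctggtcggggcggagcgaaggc
Top2a: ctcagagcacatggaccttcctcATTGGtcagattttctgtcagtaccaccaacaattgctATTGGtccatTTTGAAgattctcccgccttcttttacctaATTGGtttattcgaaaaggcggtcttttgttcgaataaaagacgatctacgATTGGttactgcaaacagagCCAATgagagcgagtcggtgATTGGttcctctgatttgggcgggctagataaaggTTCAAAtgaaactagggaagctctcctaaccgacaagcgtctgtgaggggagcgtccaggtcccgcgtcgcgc
Cdk1: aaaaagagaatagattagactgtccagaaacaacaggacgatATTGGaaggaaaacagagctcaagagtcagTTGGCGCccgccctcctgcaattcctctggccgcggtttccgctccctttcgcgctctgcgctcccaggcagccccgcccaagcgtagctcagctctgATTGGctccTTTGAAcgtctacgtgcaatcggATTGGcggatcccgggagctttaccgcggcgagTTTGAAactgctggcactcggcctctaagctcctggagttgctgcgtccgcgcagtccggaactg
Mcm6: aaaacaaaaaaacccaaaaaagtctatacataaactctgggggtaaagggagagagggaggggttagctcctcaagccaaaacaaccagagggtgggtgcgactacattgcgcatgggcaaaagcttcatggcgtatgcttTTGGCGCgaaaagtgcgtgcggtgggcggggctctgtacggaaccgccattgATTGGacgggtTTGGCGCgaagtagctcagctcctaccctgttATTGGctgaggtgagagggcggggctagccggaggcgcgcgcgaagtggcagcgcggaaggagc
The Mki67 and Cdk1 windows each hold 2 CHR, 3 CCAAT, and 1 TTGGCGC elements, and the Top2a window holds 2 CHR and 6 CCAAT elements. The Mcm6 window holds 2 TTGGCGC and 2 CCAAT elements and no CHR.

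WD upregulated most of the members in 2 strains, PWK/PhJ and 129S1/SvImJ, and a minority in the other 5, except that in C57BL/6J the number depended on 1 mouse: without CD replicate 2 it was 22 of 40, where 16.7% of all genes were higher. At an adjusted p below 0.05 in limma-voom, 26 of the 40 members were higher on WD in PWK/PhJ, where 15.1% of all genes tested were higher, and 24 of 40 were higher in 129S1/SvImJ, where 14.5% of all genes were. The number of members higher on WD was 7 in C57BL/6J (14.3% of all genes), 6 in DBA/2J (10.2%), 5 in A/J (4.39%), 4 in CAST/EiJ (9.77%), and 2 in WSB/EiJ (4.97%). Few members fell. CAST/EiJ had 2 lower members (9.73% of all genes), and 1 each was lower in PWK/PhJ (14.5%), 129S1/SvImJ (13.6%), C57BL/6J (11.9%), and DBA/2J (7.77%). In A/J (4.64%) and WSB/EiJ (3.97%) limma-voom called 0 lower, with 1 and 0 at an unadjusted p below 0.05, where edgeR called 1 and 0 and DESeq2 0 and 0 at an adjusted p below 0.05. The median log2 fold change of the 40 members reached 1.11 in PWK/PhJ and 0.87 in 129S1/SvImJ. It was 0.72 for A/J, 0.52 for WSB/EiJ, 0.33 for CAST/EiJ, 0.26 for C57BL/6J, and 0.25 for DBA/2J, while the median of all genes lay between -0.01 and 0.02 in every strain. In A/J and WSB/EiJ 38 and 35 of the 40 estimates were positive, but few passed the test in this fit, whose variance was shared by all groups. Separate fits called 19 members in A/J and 6 in WSB/EiJ. Under alternative fits the number called in either direction ran from 4 to 19 in A/J and from 1 to 6 in WSB/EiJ. Leaving out single mice gave 21 to 24 called members in 129S1/SvImJ and 21 to 29 in PWK/PhJ, but 3 to 22 in C57BL/6J, 3 to 8 in CAST/EiJ, 3 to 7 in DBA/2J, 1 to 6 in A/J, and 0 to 2 in WSB/EiJ.

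**Figure D1:**
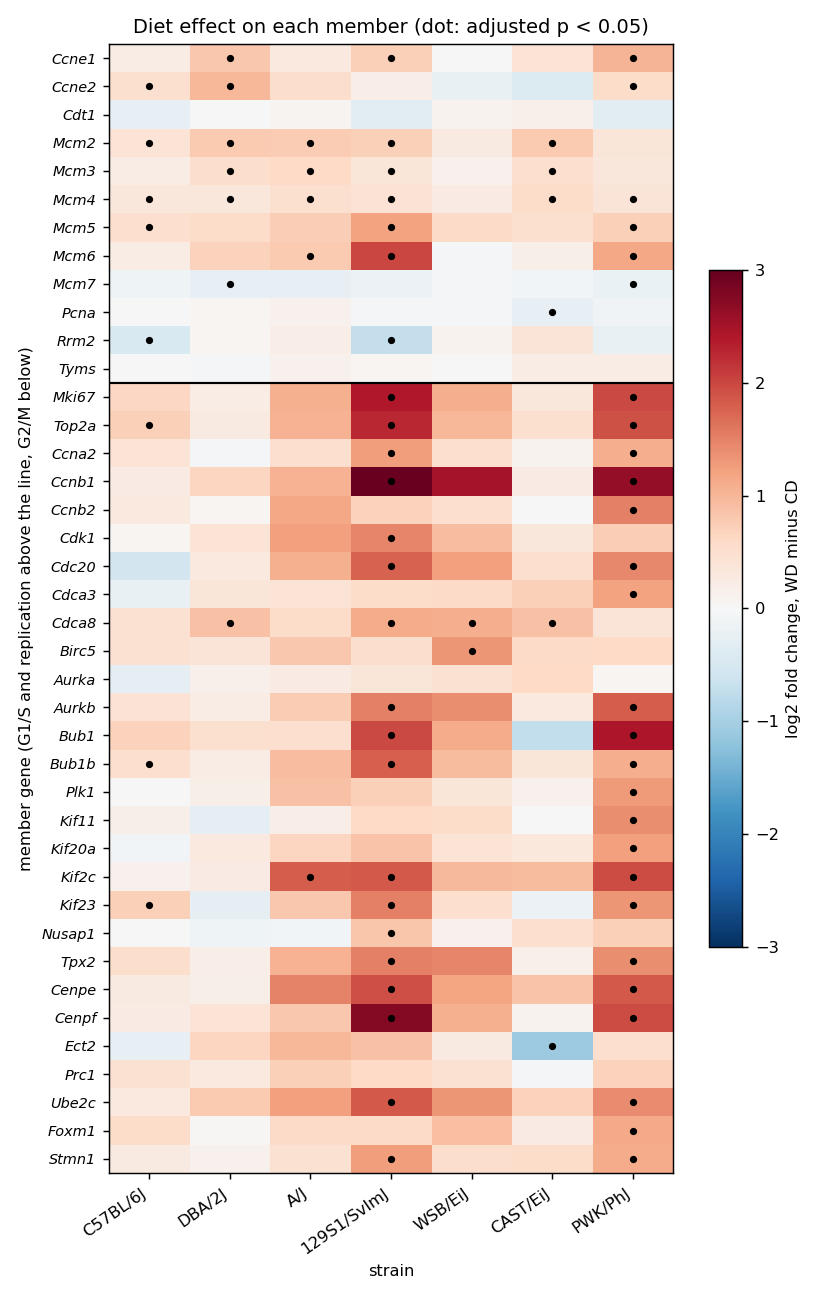
Log2 fold change of each of the 40 members (vertical axis, G1/S and replication genes above the line and G2/M genes below) on WD relative to CD in each strain (horizontal axis). Red marks a higher and blue a lower level on WD, and a dot marks a limma-voom adjusted p below 0.05, with 26 members higher in PWK/PhJ and 24 in 129S1/SvImJ.

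By median log2 fold change, the response in PWK/PhJ and 129S1/SvImJ was larger for the mitotic than for the replication genes. Of the 28 G2/M members, 21 were higher on WD in PWK/PhJ and 18 in 129S1/SvImJ, and all 28 estimates were positive in both. The median log2 fold change of the 28 was 1.31 in PWK/PhJ and 1.36 in 129S1/SvImJ. In WSB/EiJ all 28 estimates were positive as well (median 0.93), and in A/J 27 were (median 0.82). Of the 12 G1/S members, 5 were higher and 1 lower in PWK/PhJ (median 0.35), and 6 were higher and 1 lower in 129S1/SvImJ (median 0.29). In 3 of the other strains a larger share of the G1/S than of the G2/M members was called higher on WD. It was 5 of 12 against 1 of 28 in DBA/2J (10.2% of all genes) and 4 of 12 against 1 of 28 in A/J (4.39%). In CAST/EiJ it was 3 of 12 against 1 of 28 (9.77%). The median log2 fold change was larger for G2/M than for G1/S members in A/J (0.82 against 0.38) and CAST/EiJ (0.33 against 0.30). In DBA/2J it was smaller (0.24 against 0.43). In C57BL/6J the shares called were 4 of 12 against 3 of 28 with all mice (14.3% of all genes). Without CD replicate 2 they were 6 of 12 against 16 of 28 (16.7%). Both members called in WSB/EiJ were G2/M genes. Across strains, 8 members were called higher in no strain, which were Cdt1, Mcm7, Pcna, Rrm2, Tyms, Aurka, Ect2, and Prc1. Of these, without C57BL/6J CD replicate 2, Prc1 was called higher in C57BL/6J (adjusted p = 0.002) and Tyms and Aurka in CAST/EiJ (adjusted p = 0.049 and 0.023).

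In 129S1/SvImJ, Mki67, the gene of the proliferation marker Ki-67, was at 0.274 CPM in the lowest, 0.738 in the median, and 0.911 in the highest of the 7 mice on CD, and at 2.83, 3.39, and 4.23 CPM in the 6 mice on WD. The diets did not overlap, and the log2 fold change was 2.41 (SE 0.53, adjusted p = 0.00024). Top2a, the topoisomerase that untangles chromosomes before they separate, ranged from 0.19 to 1.01 CPM on CD (median 0.483) and from 2.08 to 2.73 CPM on WD (median 2.43), again with no overlap (log2 fold change 2.27, SE 0.49, adjusted p = 0.00023). Ccnb1 had the largest fold change of the called members in this strain, at 2.96 (SE 0.82, adjusted p = 0.0036), from 0 to 0.217 CPM on CD (median 0.074) to 0.285 to 0.649 CPM on WD (median 0.549). Cenpf followed with 2.76 (SE 0.77, adjusted p = 0.0039), from a median of 0.065 to 0.492 CPM. Both are low genes for which a few reads per mouse carry the value on CD. Cdk1, the kinase of mitosis, rose from 0.294 to 0.812 CPM (median 0.425) to 1.04 to 1.48 CPM (median 1.32), a log2 fold change of 1.47 (SE 0.43, adjusted p = 0.0066). In all, WD mice lay above every CD mouse for 23 of the 40 members in 129S1/SvImJ, against 9.23% of all genes tested.

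In PWK/PhJ, Mki67 was at 0.445, 0.963, and 2.46 CPM in the lowest, median, and highest of the 6 mice on CD and at 1.57, 4.26, and 6.00 CPM in the 7 mice on WD, a log2 fold change of 1.98 (SE 0.47, adjusted p = 0.00059). The lowest WD mouse, replicate 6, lay within the CD range and the other 6 lay above it. Ccnb1 had the largest change, 2.63 (SE 0.79, adjusted p = 0.007), from 0.021 to 0.221 CPM (median 0.073) to 0.236 to 0.951 CPM (median 0.567). Bub1, a kinase of the spindle checkpoint, followed with 2.43 (SE 0.55, adjusted p = 0.00032), from 0.021 to 0.169 CPM (median 0.105) to 0.30 to 0.819 CPM (median 0.407), without overlap. Kif2c, a kinesin that depolymerises microtubules at kinetochores, changed by 1.96 (SE 0.53, adjusted p = 0.0024), from a median of 0.095 to 0.466 CPM. Foxm1, the transcription factor of G2/M genes, rose in this strain from 0.572 to 0.992 CPM (median 0.80) to 1.07 to 2.61 CPM (median 1.54), a log2 fold change of 1.14 (SE 0.32, adjusted p = 0.0043), and it passed the test in no other strain, except in C57BL/6J without CD replicate 2 (0.94, SE 0.24, adjusted p = 0.0015). Top2a rose from a median of 0.687 to 2.51 CPM (log2 fold change 1.91, SE 0.45, adjusted p = 0.00051). WD mice lay above every CD mouse for 11 of the 40 members, against 6.59% of all genes tested. In the other strains this number was 9 in A/J (4.14% of all genes), 3 in WSB/EiJ (2.5%), and 2 in DBA/2J (4.68%). It was 0 in C57BL/6J (0.806%) and CAST/EiJ (0.952%).

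**Figure D2:**
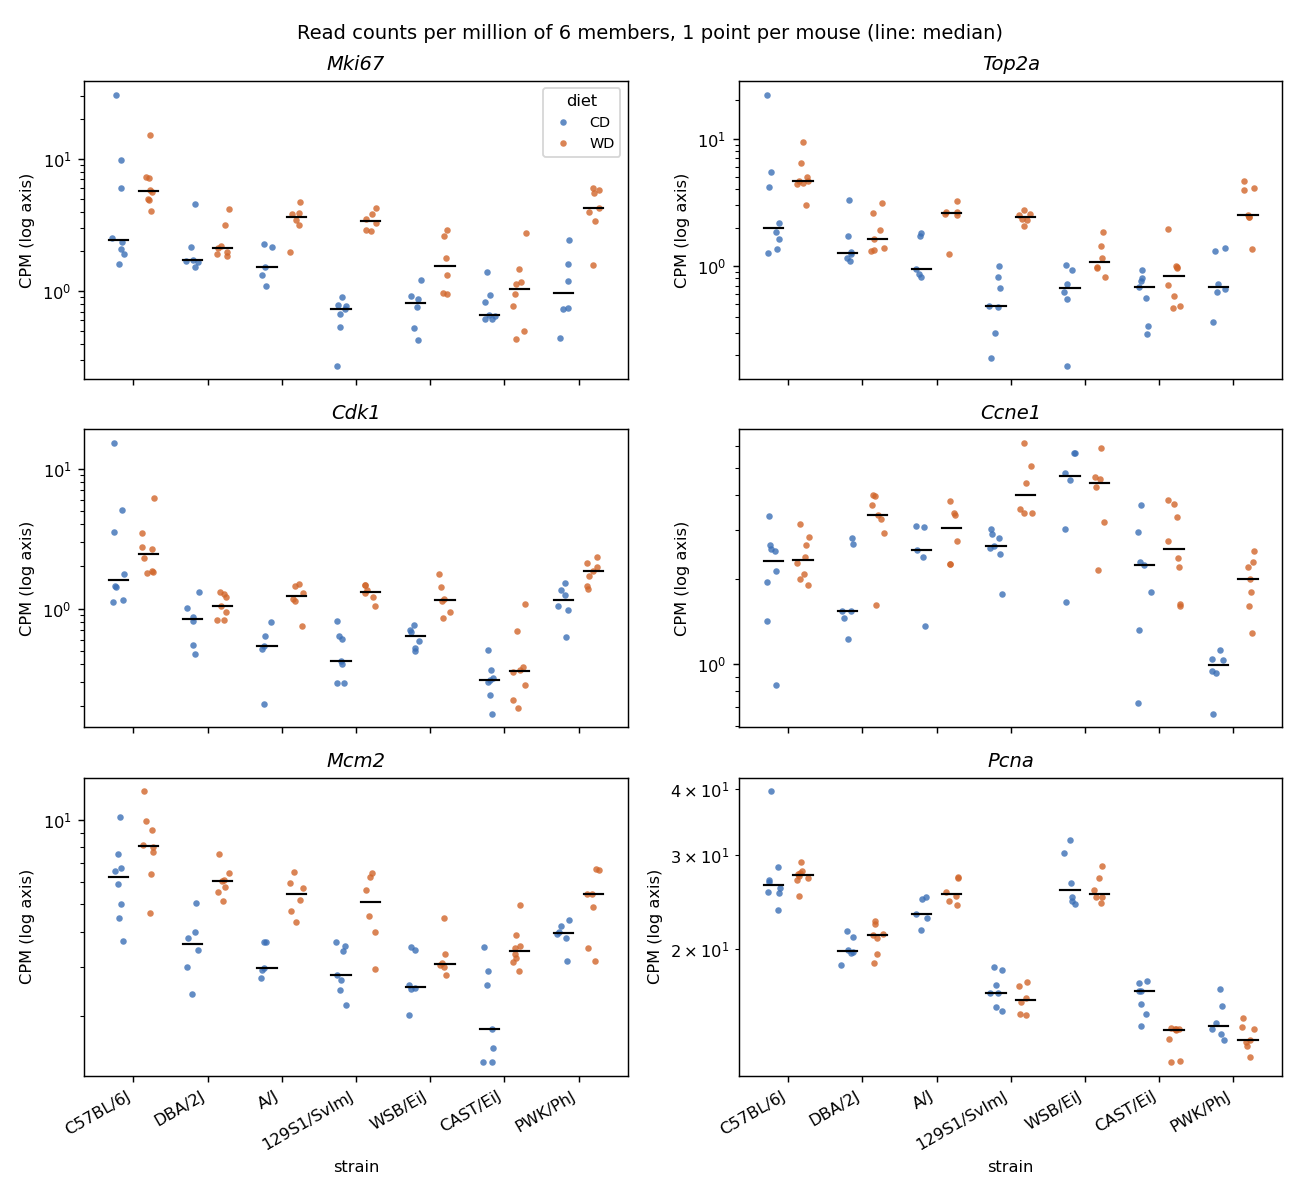
CPM of Mki67, Top2a, Cdk1, Ccne1, Mcm2, and Pcna in every mouse (1 point each, log axis) by strain and diet, with the median of each group as a line. In 129S1/SvImJ all 6 WD mice lie above all 7 CD mice for Mki67, Top2a, and Cdk1, and in C57BL/6J on CD 1 mouse at 30.6 CPM of Mki67 lies far above the others, while Pcna differs mainly between strains.

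The replication genes had smaller changes that recurred across strains. The MCM proteins 2 to 7 form the helicase that unwinds DNA, and Mcm4 was higher on WD in 6 strains, Mcm2 in 5, Mcm3 in 4, and Mcm5 and Mcm6 in 3 each, while Mcm7 was lower in 2. Without C57BL/6J CD replicate 2, Mcm3 and Mcm6 were also called higher in C57BL/6J, Mcm3 in PWK/PhJ, and Mcm5 in A/J, and Mcm7 was also called lower in A/J and 129S1/SvImJ. Mcm4 rose by 0.33 to 0.55 on the log2 scale in the 6 strains, and in WSB/EiJ it had 0.23. For Mcm4 the test of different diet effects between strains gave an adjusted p of 0.72, and for Mcm2 0.32. In A/J, the 5 mice on CD had 2.73, 2.98, 3.67, 2.91, and 3.67 CPM of Mcm2, and the 6 on WD had 4.34 to 6.50 CPM (median 5.45), all above the CD mice (log2 fold change 0.75, SE 0.22, adjusted p = 0.019). Mcm2 in DBA/2J likewise separated fully, from 2.39 to 5.05 CPM (median 3.62) to 5.12 to 7.56 CPM (median 6.08), with 0.78 (SE 0.19, adjusted p = 0.002). In CAST/EiJ it went from 1.37 to 3.53 CPM (median 1.80) to 2.90 to 4.98 CPM (median 3.41), with 0.79 (SE 0.23, adjusted p = 0.0085) and overlapping groups. Mcm6 rose by 2.02 in 129S1/SvImJ (SE 0.39, adjusted p = 4.3e-05), from 0.378 to 0.824 CPM (median 0.505) to 1.20 to 2.79 CPM (median 2.42), by 1.16 in PWK/PhJ (adjusted p = 0.00036), and by 0.77 in A/J (adjusted p = 0.037), and it had -0.04 in WSB/EiJ. Mcm7, whose exons overlap those of Ap4m1 and Cops6 on the opposite strand, fell by 0.26 in DBA/2J (SE 0.08, adjusted p = 0.018) and by 0.21 in PWK/PhJ (SE 0.08, adjusted p = 0.036), and its estimate was negative in all 7 strains.

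The cyclins E1 and E2, partners of CDK2 at the entry into S phase, rose in partly separate strains. Ccne1 was higher on WD in DBA/2J (log2 fold change 0.81, SE 0.27, adjusted p = 0.024), in 129S1/SvImJ (0.72, SE 0.23, adjusted p = 0.014), and in PWK/PhJ (1.02, SE 0.32, adjusted p = 0.011). In PWK/PhJ it went from 0.664 to 1.12 CPM (median 0.99) to 1.29 to 2.53 CPM (median 2.02) with no overlap. Ccne2, which shares exon sequence with Ints8 on the opposite strand, was higher in DBA/2J (1.00, SE 0.18, adjusted p = 2.6e-05), PWK/PhJ (0.56, SE 0.18, adjusted p = 0.015), and C57BL/6J (0.47, SE 0.16, adjusted p = 0.024). Its estimate in CAST/EiJ was -0.42, and without CD replicate 2 its estimate in C57BL/6J was 0.56. In DBA/2J all 7 WD mice (2.55 to 3.84 CPM, median 3.10) lay above all 6 CD mice (1.17 to 2.06 CPM, median 1.48).

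Rrm2, Pcna, Tyms, and Cdt1 were not called higher in any strain with all mice. Rrm2 fell on WD in 129S1/SvImJ, from 6.63 to 7.98 CPM (median 7.09) to 3.63 to 5.49 CPM (median 4.54), a log2 fold change of -0.71 (SE 0.18, adjusted p = 0.0013). The groups did not overlap, so in this strain Rrm2 went down while Mki67 and Top2a went up. Rrm2 fell by 0.46 in C57BL/6J (SE 0.14, adjusted p = 0.0076), where leaving out C57BL/6J CD replicate 2 gave -0.31 and an adjusted p of 0.06. Pcna fell by 0.25 in CAST/EiJ (SE 0.07, adjusted p = 0.005), from 14.3 to 17.4 CPM (median 16.6) to 12.2 to 14.2 CPM (median 14.1), and its estimates in the other strains lay between -0.11 and 0.13. Tyms, thymidylate synthase, and Cdt1, which loads the helicase at origins, were called in no strain by limma-voom with all mice, and their estimates ranged from -0.02 to 0.21 and from -0.35 to 0.15. Pcna, Tyms, Ccnb1, and Ccnb2 have annotated pseudogenes with which they can share reads.

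The remaining strains had a few called members each. In A/J, Kif2c had the largest change, with 0.023, 0.183, 0.261, 0.156, and 0.065 CPM in the 5 CD mice and 0.207 to 0.646 CPM (median 0.487) in the 6 WD mice (log2 fold change 1.82, SE 0.59, adjusted p = 0.035). In CAST/EiJ, Ect2, a RhoA activator of cytokinesis, fell by 1.09 (SE 0.37, adjusted p = 0.024), from 1.05 to 5.71 CPM (median 2.10) to 0.679 to 1.86 CPM (median 1.02). Cdca8, a subunit of the chromosomal passenger complex, was higher on WD in 4 strains: 129S1/SvImJ (1.11), WSB/EiJ (1.08), DBA/2J (0.88), and CAST/EiJ (0.87). It was also called in C57BL/6J without CD replicate 2 (0.80, adjusted p = 0.00037). In WSB/EiJ its adjusted p was 0.05 after rounding and below the threshold before, and all 6 WD mice (0.648 to 1.34 CPM) lay above all 6 CD mice (0.309 to 0.598 CPM). Birc5, encoding the passenger protein survivin, was the other member called in WSB/EiJ, with 1.33 (SE 0.41, adjusted p = 0.027), from 0.376 to 1.06 CPM (median 0.689) to 1.04 to 2.28 CPM (median 1.68). Larger estimates with wide errors also stood in this strain, such as Ccnb1 with 2.50 (SE 0.96, adjusted p = 0.09), which without C57BL/6J CD replicate 2 in the shared fit had 2.49 (SE 0.81, adjusted p = 0.034). In A/J, Mki67 had an estimate of 1.07 (SE 0.48, adjusted p = 0.16) with 1.32, 2.17, 1.09, 2.29, and 1.53 CPM on CD and 1.97 to 4.71 CPM on WD.

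C57BL/6J mice on CD were heterogeneous. The G2/M score, the mean log2 CPM of the 28 G2/M members, was 3.20 in replicate 2, 1.96 in replicate 4, and 1.27 in replicate 6, and lay between -0.33 and 0.08 in the other 5 mice. Mki67 stood at 30.6, 9.75, and 6.06 CPM in these 3 mice and at 1.59 to 2.52 CPM in the other 5. The 8 C57BL/6J mice on WD had G2/M scores of 0.53 to 2.16 (median 0.91) and 4.03 to 15.2 CPM of Mki67 (median 5.71), so all 8 lay above those 5 CD mice and 3 CD mice reached or passed the WD range. The median SD of a G2/M member between mice was 1.34 on the log2 scale in C57BL/6J on CD and 0.27 to 0.57 in the other 13 groups. Of the called members in this strain, Top2a had 0.72 (SE 0.27, adjusted p = 0.036) from 1.26 to 22.2 CPM (median 2.00) to 3.04 to 9.51 CPM (median 4.66). Kif23, a kinesin of cytokinesis, had 0.72 (SE 0.22, adjusted p = 0.01), Mcm5 0.51 (SE 0.19, adjusted p = 0.034), and Bub1b 0.51 (SE 0.18, adjusted p = 0.03), each with overlapping groups. Without replicate 2 the number of members higher on WD rose from 7 to 22 (16 G2/M and 6 G1/S), with 16.7% of all genes higher, and the median log2 fold change of the 40 went from 0.26 to 0.53. Mki67 then had 1.07 (SE 0.25, adjusted p = 0.00049) and Top2a 1.18 (SE 0.23, adjusted p = 4.1e-05). Kif23 had 0.97, Mcm5 0.78, and Bub1b 0.79 without replicate 2.

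**Figure D3:**
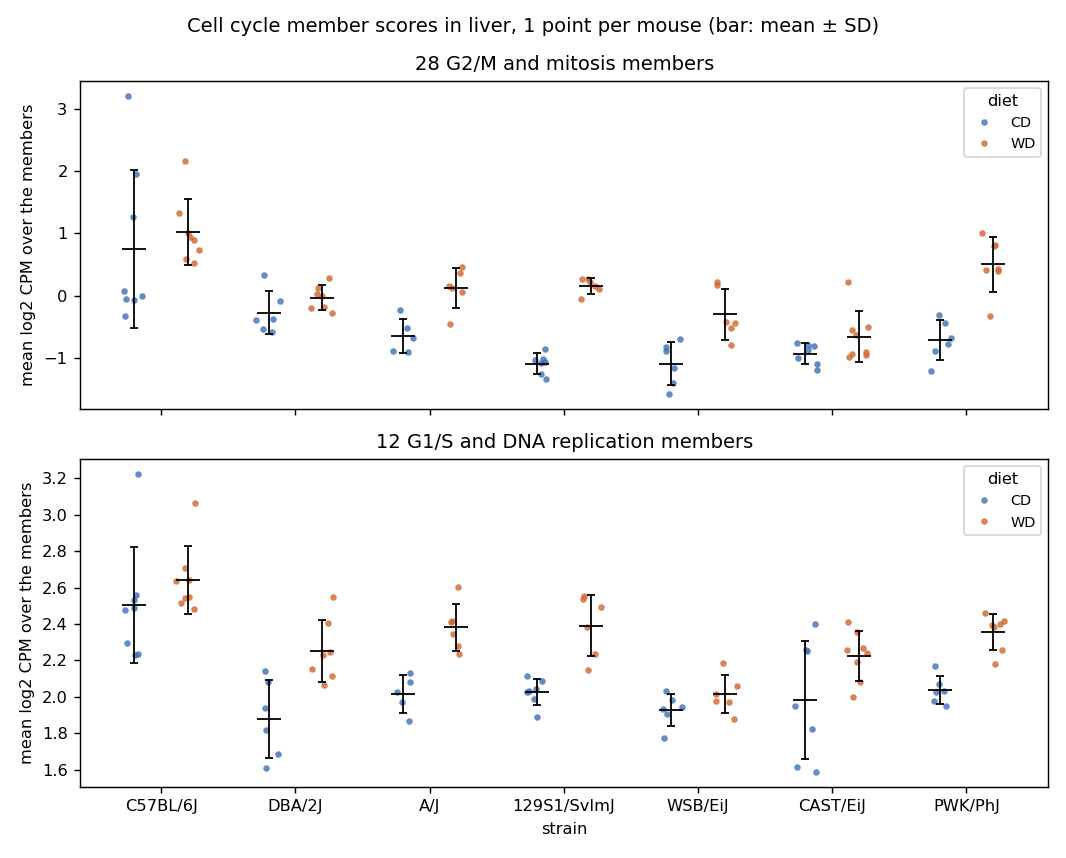
Mean log2 CPM of the 28 G2/M members (top) and of the 12 G1/S members (bottom) in each mouse by strain and diet, with the group mean and SD as bars. The G2/M scores of the 6 129S1/SvImJ mice on WD lie above those of the 7 on CD, and those of C57BL/6J on CD spread from -0.33 to 3.20.

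In the scores, the G2/M mean on WD exceeded that on CD by 1.25 in 129S1/SvImJ, 1.22 in PWK/PhJ, 0.79 in WSB/EiJ, 0.76 in A/J, 0.27 in C57BL/6J, 0.27 in CAST/EiJ, and 0.24 in DBA/2J. The G1/S score had a narrower range of differences, from 0.09 in WSB/EiJ and 0.14 in C57BL/6J to 0.24 in CAST/EiJ, 0.32 in PWK/PhJ, 0.36 in 129S1/SvImJ, 0.37 in A/J, and 0.37 in DBA/2J. Without CD replicate 2 the C57BL/6J differences were 0.62 for the G2/M and 0.24 for the G1/S score. Each strain was studied in 2 or 3 cohorts, which the labels give, so the differences were also taken within cohorts. In 129S1/SvImJ the score of all 40 members differed by 0.89 and 1.08 in the cohorts, and in PWK/PhJ by 1.05 and 0.86. The values were 0.65 and 0.56 for A/J, 0.54 and 0.67 for WSB/EiJ, 0.43 and 0.16 for DBA/2J, and 0.12 and 0.14 for C57BL/6J, where the first became 0.96 without CD replicate 2, a mouse of that cohort. In CAST/EiJ it was 0.32, -0.01, and 0.34, where the cohort at -0.01 held 2 mice on each diet and the cohort at 0.32 held 1 mouse on CD. Every called member kept its direction in each cohort of its strain in 129S1/SvImJ (25 of 25), PWK/PhJ (27 of 27), DBA/2J (7 of 7), A/J (5 of 5), and WSB/EiJ (2 of 2), as did 7 of 8 in C57BL/6J, where Mcm2 was the exception, and 5 of 6 in CAST/EiJ, where Ect2 was.

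The diet effect differed between strains for 13 of the 40 members by an F test over all 7 strains (limma-voom adjusted p below 0.05), a share near that of all genes tested (37.5%). The smallest p-values belonged to Ccne2 (adjusted p = 0.00014), Mcm6 (0.00051), Kif23 (0.0016), Rrm2 (0.0027), and Ect2 (0.0027). Ccne2 responded more in DBA/2J than in the mean of the other 6 strains, by 0.81 (SE 0.20, adjusted p = 0.0053, with 3.88% of all genes above), and less in CAST/EiJ, by -0.84 (SE 0.21, adjusted p = 0.003). Mcm6 responded more in 129S1/SvImJ, by 1.52 (SE 0.41, adjusted p = 0.014, 3.35% of all genes above), and Rrm2 less, by -0.71 (SE 0.20, adjusted p = 0.018, 2.94% below). In PWK/PhJ, Bub1 exceeded the other strains by 1.76 (SE 0.60, adjusted p = 0.032) and Kif11, the motor that pushes spindle poles apart, by 1.18 (SE 0.38, adjusted p = 0.021), with 7.59% of all genes above. In DBA/2J, Kif23 was lower by -1.06 (adjusted p = 0.037, 3.89% below). In CAST/EiJ, Ect2 (-1.60), Bub1 (-1.94), Pcna (-0.24), and Ccne2 fell below the other strains (6.91% of all genes below), and Rrm2 lay above them by 0.56 (7.59% above). In C57BL/6J, Cdc20, an activator of the anaphase-promoting complex, lay below by -1.61 (SE 0.44, adjusted p = 0.019) and Aurka, a spindle kinase, by -0.62 (SE 0.17, adjusted p = 0.023), with 2.45% of all genes below. Neither passed without CD replicate 2, where Cdc20 had -1.13 (SE 0.38, adjusted p = 0.056) and Aurka -0.38 (SE 0.14, adjusted p = 0.10). Over the 28 G2/M members the median of this difference was 0.77 in PWK/PhJ and 0.73 in 129S1/SvImJ, and of these members Bub1 and Kif11 in PWK/PhJ passed its test. Without C57BL/6J CD replicate 2, Mki67 (1.44, SE 0.45, adjusted p = 0.034), Top2a (1.29, SE 0.42, adjusted p = 0.042), and Bub1b (1.08, SE 0.33, adjusted p = 0.029) passed it in 129S1/SvImJ as well, where 3.75% of all genes lay above, and Mki67, Top2a, and Kif11 in DBA/2J and Mcm6 in CAST/EiJ then passed below. Mki67 (adjusted p = 0.0096), Top2a (0.017), and Ccnb1 (0.025) were among the 13 that differed. Without C57BL/6J CD replicate 2 the number was 19, where 41.5% of all genes differed.

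On CD, the level of every member differed between the strains. No cohort held all strains, and WSB/EiJ was alone in cohorts 6 and 7, so strain and cohort cannot be fully told apart in these levels. All 40 passed the F test of equal levels over the 7 CD groups, as did 93.7% of all genes tested. The members with the smallest p-values were Pcna (limma-voom adjusted p = 1.2e-27), Rrm2 (1.9e-21), Aurka (6.8e-19), Mcm6 (5.7e-15), and Stmn1 (1.4e-13). The order of Pcna was C57BL/6J (median 26.4, range 23.7 to 39.6 CPM), WSB/EiJ (25.8, 24.2 to 32.0), A/J (23.2, 24.9, 25.0, 22.8, and 21.7 in its 5 mice), DBA/2J (19.8, 18.6 to 21.6), CAST/EiJ (16.6, 14.3 to 17.4), 129S1/SvImJ (16.5, 15.3 to 18.5), and PWK/PhJ (14.3, 13.5 to 16.8). The top 3 strains overlapped their neighbours, DBA/2J lay below all mice of A/J and above all mice of the 3 strains under it, and those 3 overlapped. Rrm2 fell into 3 low and 4 high strains. Its median was 1.43 CPM in A/J, 1.91 CPM in DBA/2J, and 2.61 CPM in WSB/EiJ, where the highest mouse had 3.20 CPM, and it was 4.42 in CAST/EiJ, 7.09 in 129S1/SvImJ, 7.94 in PWK/PhJ, and 8.18 in C57BL/6J, where the lowest mouse of these 4 strains had 3.45 CPM. For Mcm6, 129S1/SvImJ was lowest (0.378 to 0.824 CPM) and C57BL/6J highest (3.93 to 18.9 CPM, median 5.52), with DBA/2J, WSB/EiJ, PWK/PhJ, CAST/EiJ, and A/J at medians of 1.07, 1.70, 1.95, 2.85, and 3.84 CPM. Neighbours in that order overlapped. Aurka ran from a median of 0.966 CPM in CAST/EiJ to 4.47 CPM in PWK/PhJ, and Stmn1, the microtubule destabiliser stathmin, from 0.908 CPM in 129S1/SvImJ to 4.28 CPM in C57BL/6J.

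By the G2/M score, C57BL/6J had the highest mean level of mitotic genes on CD, but its mice differed widely. Replicates 2, 4, and 6 had scores of 3.20, 1.96, and 1.27. Its other mice lay between -0.33 and 0.08, within the DBA/2J range on CD of -0.59 to 0.33. In limma-voom, 36 of the 40 members were higher in C57BL/6J on CD than in the mean of the other 6 strains, where 29.5% of all genes were. These were 27 of the 28 G2/M members, with a median difference of 1.80 on the log2 scale, and 9 of the 12 G1/S members, with a median of 0.36. The largest differences belonged to Ccnb1 (3.34, SE 0.39) and Cdc20 (2.57, SE 0.32). Without replicate 2, 32 members were higher (27.4% of all genes), with medians of 1.37 for the G2/M and 0.33 for the G1/S members, and Ccnb1 had 2.84. The same median for G2/M members was -0.75 for 129S1/SvImJ, -0.61 for WSB/EiJ, -0.51 for CAST/EiJ, -0.35 for PWK/PhJ, -0.01 for A/J, and 0.40 for DBA/2J. Thus 129S1/SvImJ, with the largest rise of the G2/M score on WD, started from a mean score of -1.09 on CD, as did WSB/EiJ, and it reached 0.16 on WD, while C57BL/6J stood at 0.75 on CD, or 0.40 without replicate 2, and at 1.02 on WD.

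**Figure D4:**
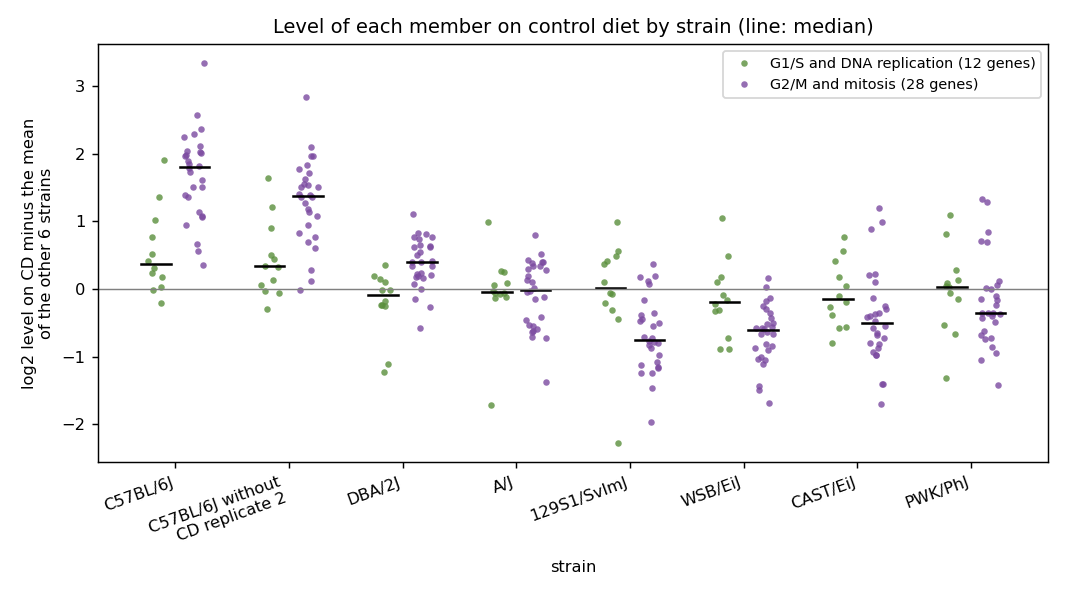
Log2 level of each member on CD in a strain minus the mean of the other 6 strains, for 12 G1/S (green) and 28 G2/M (purple) genes, with medians as lines. C57BL/6J is shown with all 8 CD mice and without replicate 2, where the G2/M median is 1.80 and 1.37, and the lowest G2/M median is -0.75 in 129S1/SvImJ.

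The G2/M members varied together between mice of the same group. After the means of the 14 groups were removed, the median Pearson r between pairs of G2/M members was 0.62 over the 93 mice, between pairs of G1/S members 0.23, and between a G2/M and a G1/S member 0.31. Without the 16 C57BL/6J mice the values were 0.36, 0.18, and 0.14 over 77 mice. The mice share depth and RNA handling across genes, and the correlations are given as descriptions. Mki67 followed the mean of the other G2/M members most closely (r = 0.90, and 0.86 without C57BL/6J), then Tpx2, a spindle assembly factor (0.88 and 0.77), and Top2a (0.87 and 0.84). Birc5 (0.55 and 0.05) and Ect2 (0.51 and 0.14) followed it least of the G2/M members. Among the G1/S members Mcm6 and Mcm5 had 0.60 each, and Ccne2 (0.09) and Cdt1 (0.03) were near 0. The genes outside the members with the highest r with the score of the members were Racgap1 (0.91), Prr11 (0.84), Ckap2l (0.84), Ckap2 (0.84), Hmmr (0.80), Dlgap5 (0.80), Nuf2 (0.79), Knstrn (0.79), Vim (0.78), and Ltbp3 (0.78). Without C57BL/6J, Racgap1 (0.82) again came highest, and Vim and Ltbp3 had 0.53 and 0.40.

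**Figure D5:**
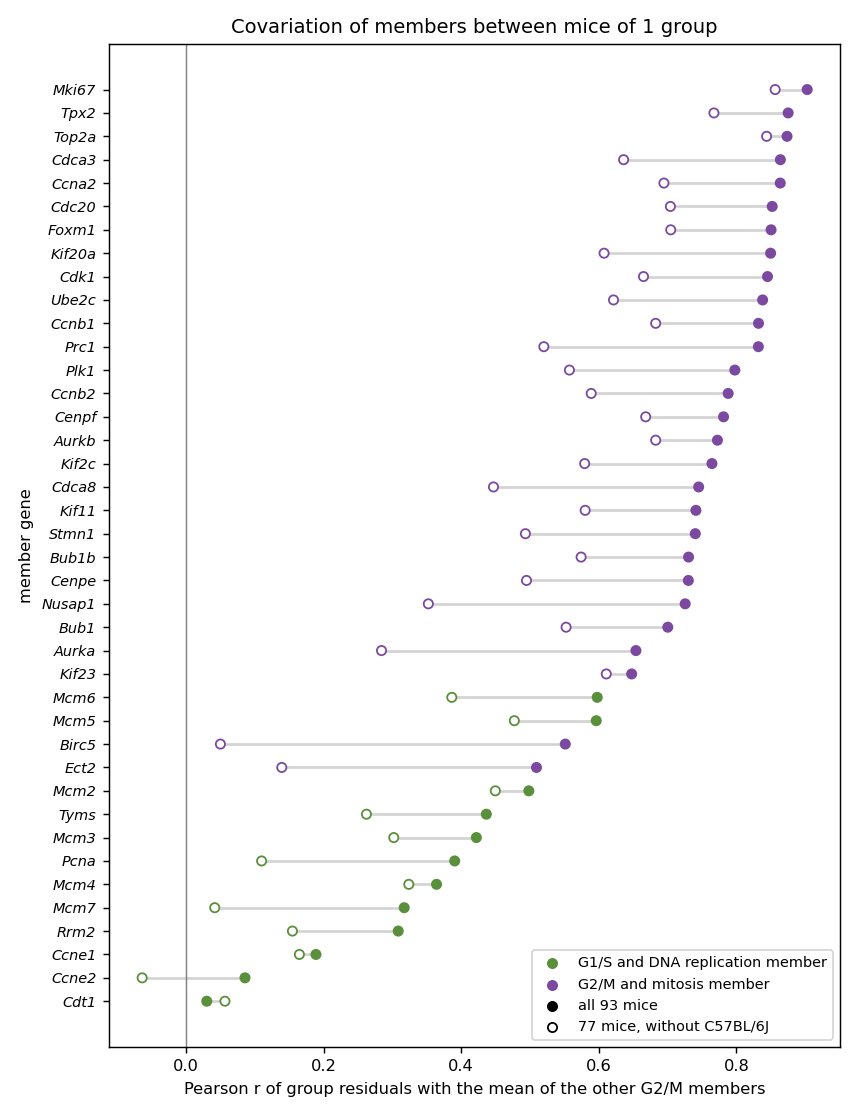
Pearson r between each member and the mean of the other G2/M members (horizontal axis), after group means were removed, over 93 mice (filled) and over the 77 mice without C57BL/6J (open). Mki67 is highest at 0.90 and 0.86, and Cdt1 is lowest over the 93 mice at 0.03.

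Regulators of the cycle that are not members were followed as lists. Among 19 E2F, RB, and DREAM genes, E2f1, the activator of S phase genes, was higher on WD in all 7 strains, by 0.73 in PWK/PhJ (SE 0.17, limma-voom adjusted p = 0.00038) to 1.44 in 129S1/SvImJ (SE 0.18, adjusted p = 4e-09). Its CPM on WD lay above every CD mouse in 6 strains, with the exception of C57BL/6J, where 5 of 8 WD mice did. E2f2 was higher in WSB/EiJ (1.54), CAST/EiJ (1.61), and PWK/PhJ (0.97), and E2f8 in 129S1/SvImJ (1.46). E2f7 fell by 0.77 in PWK/PhJ. The list had 4 higher and 4 lower genes in both 129S1/SvImJ and PWK/PhJ, 4 and 1 for DBA/2J, 3 and 3 for C57BL/6J, 3 and 1 for CAST/EiJ, 2 and 1 for A/J, and 3 and 0 for WSB/EiJ, and its median log2 fold change lay between -0.06 and 0.04. Beside the shares of all genes, which were 14.5% higher and 13.6% lower in 129S1/SvImJ, 15.1% and 14.5% in PWK/PhJ, and 14.3% and 11.9% in C57BL/6J, nothing is read from these counts of 19 genes.

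Among 18 G1 cyclins, CDKs, and CDK inhibitors, Ccnd1, cyclin D1, moved in opposite directions. It rose in 129S1/SvImJ from 4.17 to 12.9 CPM (median 5.17) to 13.3 to 25.5 CPM (median 19.2), a log2 fold change of 1.57 (SE 0.34, adjusted p = 0.00025), and in PWK/PhJ by 1.06 (SE 0.32, adjusted p = 0.0082). It fell by 1.19 in C57BL/6J (SE 0.24, adjusted p = 6.9e-05), from 46.9 to 177 CPM (median 109) to 21.5 to 115 CPM (median 39.6), and without CD replicate 2 by 1.11 (adjusted p = 0.00024). Wee1, an inhibitor of CDK1, was higher in DBA/2J (1.52), A/J (1.26), PWK/PhJ (1.08), and C57BL/6J (0.90). Of the 18, PWK/PhJ had 5 higher and 1 lower, 129S1/SvImJ 4 and 1, DBA/2J 3 and 3, A/J 3 and 0, C57BL/6J 2 and 5, CAST/EiJ 1 and 4, and WSB/EiJ 1 and 0. The shares of all genes higher and lower were 15.1% and 14.5% in PWK/PhJ, 14.5% and 13.6% in 129S1/SvImJ, 10.2% and 7.77% in DBA/2J, 14.3% and 11.9% in C57BL/6J, 4.39% and 4.64% in A/J, 9.77% and 9.73% in CAST/EiJ, and 4.97% and 3.97% in WSB/EiJ.

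Further replication and mitosis genes were counted in the same way. Of 33 other DNA replication genes, 13 were higher on WD in DBA/2J (10.2% of all genes), 12 in 129S1/SvImJ (1 lower; 14.5%), 10 in CAST/EiJ (9.77%), 7 in C57BL/6J (4 lower; 14.3%), 6 in A/J (4.39%), 6 in PWK/PhJ (1 lower; 15.1%), and 4 in WSB/EiJ (4.97%). Uhrf1, which maintains DNA methylation behind the fork, rose by 2.27 in 129S1/SvImJ, 1.80 in PWK/PhJ, and 1.39 in C57BL/6J (1.68 without CD replicate 2). Chaf1a, a histone chaperone, rose by 1.54 in A/J, 1.35 in CAST/EiJ, and 1.31 in DBA/2J, with smaller rises in 129S1/SvImJ (1.20) and PWK/PhJ (0.84). Of 48 other mitosis genes, 25 were higher in 129S1/SvImJ and 25 in PWK/PhJ (1 lower), with medians of 1.10 and 0.91. The counts elsewhere were 7 in DBA/2J, 3 in A/J, 2 in CAST/EiJ (1 lower), 2 in C57BL/6J (2 lower), and 1 in WSB/EiJ, which in CAST/EiJ, C57BL/6J, and WSB/EiJ are smaller shares than those of all genes. Without C57BL/6J CD replicate 2 the counts in C57BL/6J were 12 of 33 replication genes (3 lower) and 13 of 48 mitosis genes (2 lower), with 16.7% of all genes higher. The largest changes were Dlgap5 (3.10), Ckap2l (2.66), and Melk (2.60) in 129S1/SvImJ and Depdc1a (2.58), Pbk (2.46), and Nuf2 (2.40) in PWK/PhJ.

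Markers of other liver cells moved with the diet as well, and they did so in 129S1/SvImJ and PWK/PhJ but also in C57BL/6J. All 5 pan-leukocyte markers were higher on WD in each of these 3 strains, 2 were in WSB/EiJ, and 1 was in A/J. Their summed level ranged from 22.3 to 38.3 CPM on CD and from 65.0 to 95.3 CPM on WD in 129S1/SvImJ. The corresponding ranges were 48.4 to 127 and 102 to 167 CPM in C57BL/6J, and in PWK/PhJ the sum was 15.8 to 46.1 CPM on CD (median 31.8) and at least 46.3 CPM on WD (median 63.1). Beside these counts, the shares of all genes higher on WD were 14.5% in 129S1/SvImJ, 15.1% in PWK/PhJ, and 14.3% in C57BL/6J. They were 10.2% in DBA/2J, 9.77% in CAST/EiJ, 4.97% in WSB/EiJ, and 4.39% in A/J. The lists are short, and nothing is read from counts near these shares. Of 13 macrophage and Kupffer cell markers, 9 were higher in 129S1/SvImJ, 9 in PWK/PhJ, and 7 in C57BL/6J (1 lower). In WSB/EiJ 2 were higher, and in A/J and CAST/EiJ 1 each. Of 11 T and NK cell markers, 9 were higher in 129S1/SvImJ and 1 each in C57BL/6J, WSB/EiJ, and CAST/EiJ, and 1 was lower in PWK/PhJ. Of 8 neutrophil markers, 5 were higher in 129S1/SvImJ, 3 in DBA/2J, and 2 each in C57BL/6J and PWK/PhJ. Stellate cell and fibroblast markers, 9 in number, were higher for 5 each in C57BL/6J and PWK/PhJ, 4 in 129S1/SvImJ, and 2 in A/J. Cholangiocyte markers, 6 in number, were higher for 5 in PWK/PhJ, where their sum went from 64.6 to 140 CPM to 159 to 528 CPM, and for 1 each in C57BL/6J, 129S1/SvImJ, and CAST/EiJ, with 1 lower in DBA/2J. Between 1 and 3 of 8 endothelial markers were higher in each strain, while 2 were lower in C57BL/6J and DBA/2J and 1 in WSB/EiJ and PWK/PhJ. Between 0 and 2 of the 6 erythroid markers tested were higher in each strain, and 1 was lower in 129S1/SvImJ and 1 in PWK/PhJ. Of 7 B and plasma cell markers 1 was lower in C57BL/6J and 1 in PWK/PhJ. Between 2 and 6 of the 10 hepatocyte markers were lower on WD in every strain, and 1 was higher in DBA/2J. The share of all genes lower on WD ran from 3.97% in WSB/EiJ to 14.5% in PWK/PhJ. A single neutrophil marker was at 0 in every mouse on CD of 129S1/SvImJ and of WSB/EiJ, and no other listed marker tested was at 0 throughout a group. The markers higher in C57BL/6J without CD replicate 2 were 4 for cholangiocytes, 4 for neutrophils, and 3 for T and NK cells. There were 6 for stellate cells and fibroblasts and 7 for macrophages, with 16.7% of all genes higher. The part of these cells in the changes of the members was not tested.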

How the data were processed

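Liver RNA of 93 male mice was sequenced, and groups were taken from the strain and diet in the labels. The values are raw read counts per gene that the authors deposited after STAR alignment (2.7.1a, GRCm38/mm10, per the submitters' processing notes). The annotation release and the strand setting of the counting are not given in the sources used here, so reads of overlapping genes on opposite strands cannot be told apart. Summary lines without a gene, among them unmapped reads (1.66% to 14.8% of a library), were left out of library sizes.

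Genes were kept by edgeR's filterByExpr (minimum count 10), normalised by TMM (factors 0.81 to 1.27), and fitted in limma-voom with 1 mean for each of the 14 groups. P-values were adjusted by the Benjamini-Hochberg method over 19110 genes, with a threshold of 0.05. R 4.3.3, edgeR 4.0.16, limma 3.58.1, and DESeq2 1.42.0 were used, and the fit was tested on simulated data. CPM are relative to TMM-scaled library sizes, and log2 CPM for scores and correlations had a prior count of 2. FPKM divide these by the merged exon length of the annotation. Each mouse was 1 sample, and no 2 libraries were identical (highest Pearson r 0.9927). The fit took 1 residual variance per gene over all 14 groups, so a p-value in a strain measures the spread within all groups together. It does not measure the spread of that strain alone. The median SD of a G2/M member was 1.34 in C57BL/6J on CD and 0.27 to 0.57 in the other groups.

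Members were all open to being named. Given in full were Mki67, Top2a, Cdk1, Ccne1, Mcm2, and Pcna, up to 4 called members per strain and direction with the largest fold change, and up to 5 with the smallest F test p. From the other lists up to 3 called genes per strain, and up to 10 genes of highest correlation, could be named. E2f7, Foxm1, Ccne2, Mcm7, Cdt1, Tyms, and a few other members were singled out after their values were seen, as was C57BL/6J CD replicate 2. The members and all lists were chosen with earlier results of these data known. Alternatives were edgeR's quasi-likelihood test, DESeq2, other normalisations and filters, RNA integrity or cohort as covariates, sample quality weights, separate fits, and leaving out each mouse. The omission of the library that stood apart, in every result where it is given, was added after seeing the data.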

Additional observations from a re-analysis of the deposited data

Results flagged for a closer look

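Within groups, 13 values of single mice stood far from the rest of their group by Dixon's test in 112 tests over 8 measures, where chance gives about 1 in 20. The tests were not independent, because the scores include the single genes and a mouse can appear more than once. C57BL/6J CD replicate 2 had a G1/S score of 3.22 (the next highest was 2.56) and 5.31 log2 CPM of Pcna (next highest 4.83), and C57BL/6J WD replicate 2 had a G1/S score of 3.065 (next highest 2.71). CAST/EiJ WD replicate 3 had a G2/M score of 0.226, against a group median of -0.77. For Mki67, C57BL/6J WD replicate 3 stood at 3.925 log2 CPM and DBA/2J CD replicate 4 at 2.18, above their groups, and PWK/PhJ WD replicate 6 at 0.647, below its group. For Top2a, A/J WD replicate 6 (0.316) and WSB/EiJ CD replicate 5 (-2.60) were low. For Ccne1, DBA/2J WD replicate 1 (0.70), 129S1/SvImJ CD replicate 7 (0.82), and PWK/PhJ CD replicate 3 (-0.59) were low. WSB/EiJ WD replicate 2 had 2.16 log2 CPM of Mcm2, above the 1.73 of the next mouse.

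The diet effect differed between the 7 strains in the limma-voom F test for Ccne2 (adjusted p = 0.00014), Mcm6 (0.00051), Kif23 (0.0016), Rrm2 (0.0027), Ect2 (0.0027), Bub1 (0.004), Mki67 (0.0096), Kif11 (0.013), Top2a (0.017), Bub1b (0.018), Pcna (0.019), Ccnb1 (0.025), and Kif2c (0.031).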

How the results depend on the processing

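Of the members called in the diet comparisons, none changed direction in any alternative run. Called under every alternative other than leaving out mice were 21 of 25 in 129S1/SvImJ, 24 of 27 in PWK/PhJ, 6 of 7 in DBA/2J, 3 of 5 in A/J, 4 of 6 in CAST/EiJ, 1 of 2 in WSB/EiJ, and 0 of 8 in C57BL/6J (limma-voom, edgeR, and DESeq2 together; 12 members had an unadjusted limma-voom p below 0.05 in C57BL/6J). Requiring at least 10 counts in every mouse, which left 24 members to test, gave 12 called in 129S1/SvImJ, 13 in PWK/PhJ, 5 in C57BL/6J, and 1 in WSB/EiJ, 8 with unequal diet effects, 24 with unequal levels on CD, and 20 higher in C57BL/6J on CD. Keeping genes with any count gave 5 in C57BL/6J and 1 in WSB/EiJ, and upper-quartile and relative log expression normalisation gave 1 each in WSB/EiJ. Sample quality weights gave 20 in C57BL/6J, 6 in WSB/EiJ, 19 in A/J, and 24 with unequal diet effects. Without C57BL/6J CD replicate 2 there were 22 in C57BL/6J and 9 in A/J. EdgeR called 4 in C57BL/6J (2 higher and 2 lower), 4 in WSB/EiJ, and 23 with unequal diet effects, and DESeq2 called 9 in A/J, 5 in C57BL/6J, and 4 in WSB/EiJ. Separate limma-voom fits gave 0 in C57BL/6J (4 at an unadjusted p below 0.05), 6 in WSB/EiJ, and 19 in A/J. The cause of these changes was not tested, apart from the smaller number of members under the stricter filter. Shares of all genes called are not set beside the counts in this paragraph. The counts show how calls depend on the fit, and not how the members compare with all genes. The score of all members differed by -0.01 within cohort 3 of CAST/EiJ, against 0.26 over all its mice, and that of C57BL/6J by 0.50 without CD replicate 2, against 0.23 with it.

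Leaving out single mice gave 3 to 22 called members in C57BL/6J, 3 to 7 in DBA/2J, 1 to 6 in A/J, 21 to 24 in 129S1/SvImJ, 0 to 2 in WSB/EiJ, 3 to 8 in CAST/EiJ, and 21 to 29 in PWK/PhJ, and 32 to 37 members higher in C57BL/6J on CD. The count moved by over 1.5 times without C57BL/6J CD replicate 1, 3, or 5 (4 each), 7 or 8 (5 each), or 2 (22) or WD replicate 2 (3). It did so without A/J CD replicate 1 (1), CD replicate 4 or 5 or WD replicate 3 or 4 (3 each), DBA/2J CD replicate 1 or 2 or WD replicate 6 (4 each) or CD replicate 3 (3), and CAST/EiJ CD replicate 7 (3). In WSB/EiJ it fell to 1 without CD replicate 1, 2, 3, or 5 or WD replicate 5 or 6, and to 0 in limma-voom without WD replicate 1 or 2 or CD replicate 4 or 6, where 4, 6, 6, and 7 members had an unadjusted p below 0.05. No paired analysis was possible because each mouse received a single diet. The labels give no replicate numbers, so those used here follow the order of the samples within each group. Depth limits Ccnb1 and Bub1 most, with at least 10 counts in 55 and 40 of the 93 mice.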

Other observations

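The 3 C57BL/6J mice on CD with high mitotic scores also had little Mup7, a major urinary protein gene of hepatocytes. Mup7 stood at 0, 0.331, and 0.529 CPM in replicates 2, 4, and 6 and at 5.13 to 74.2 CPM in the other 5 mice. Col1a1, a collagen gene, stood at 89.4, 20.7, and 16.7 CPM in these 3 mice and at 6.50 to 8.23 CPM in the others, and Mmp12, a macrophage elastase, at 68.3, 21.0, and 6.00 CPM against 0.763 to 1.93 CPM. Alb lay between 88960 and 107500 CPM in all 8 mice. These genes were chosen after their values were seen, the 3 mice were set apart by their scores and not by any label, and no test was made.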
